A study of Caenorhabditis elegans with 2 samples.

Results

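The authors' pooled list for ALY-2 holds 15675 peaks and background regions, all called peaks here. Of these, 2281, or 14.6%, lie away from every coding gene. They are the peaks whose summit, the base of highest signal within a peak, lies outside every annotated gene body, more than 1000 bp from the 5′ end and more than 500 bp from the 3′ end of every protein-coding gene. Signal played no part in choosing them. The data are ChIP-seq, in which DNA bound to a protein is recovered with an antibody and sequenced, from whole L1 larvae of Caenorhabditis elegans, the first larval stage. The strain is OP217, with unc-119(ed3) on chromosome III and the insertion ddIs172, which targets aly-2, in animals of mixed sex. There is 1 group with 2 biological replicates and no second genotype, stage or treatment. One label field gives aly-2 as the antibody and another describes a ChIP against eGFP-aly-2, so which part of the fusion protein was bound by the antibody cannot be read from the labels. Because whole animals were used, binding in a few cells and weak binding in many cannot be told apart.

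ALY-2 is a worm relative of the ALY/REF proteins, RNA-binding adaptors that join nascent transcripts and hand them to the mRNA export machinery. Proteins of this kind reach chromatin mainly through transcription, while the summits described here lie outside every annotated gene. The X chromosome of the worm carries recruitment elements, short stretches where the dosage compensation complex loads and then spreads along the chromosome to lower X expression in hermaphrodites.

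The sequences below are the summit and 100 bp on either side in 8 of the far intergenic peaks, from the ce11 genome (WBcel235, RefSeq), forward strand, 5′ to 3′. The first 5, all on X, are shown because they hold the word TCGCGCAGG, which is part of the motif known at the recruitment elements. The capitals mark that word or its reverse complement.
chrX:8036264-8036464: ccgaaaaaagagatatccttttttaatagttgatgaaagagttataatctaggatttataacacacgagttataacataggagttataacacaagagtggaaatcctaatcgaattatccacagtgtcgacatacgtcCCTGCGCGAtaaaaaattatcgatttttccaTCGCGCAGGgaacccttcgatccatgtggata
chrX:16682006-16682206: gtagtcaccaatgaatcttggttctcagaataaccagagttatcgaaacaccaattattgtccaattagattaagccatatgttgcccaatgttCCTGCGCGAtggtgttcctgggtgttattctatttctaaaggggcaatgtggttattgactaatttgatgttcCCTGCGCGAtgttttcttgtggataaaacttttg
chrX:11094068-11094268: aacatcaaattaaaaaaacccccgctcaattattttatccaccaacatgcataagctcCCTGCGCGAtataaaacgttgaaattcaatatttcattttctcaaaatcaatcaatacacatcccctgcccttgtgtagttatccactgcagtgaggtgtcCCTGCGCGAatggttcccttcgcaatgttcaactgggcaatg
chrX:4209155-4209355: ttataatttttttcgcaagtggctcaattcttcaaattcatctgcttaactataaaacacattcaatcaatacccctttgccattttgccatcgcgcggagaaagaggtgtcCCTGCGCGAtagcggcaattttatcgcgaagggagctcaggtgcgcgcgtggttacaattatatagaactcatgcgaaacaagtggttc
chrX:13514500-13514700: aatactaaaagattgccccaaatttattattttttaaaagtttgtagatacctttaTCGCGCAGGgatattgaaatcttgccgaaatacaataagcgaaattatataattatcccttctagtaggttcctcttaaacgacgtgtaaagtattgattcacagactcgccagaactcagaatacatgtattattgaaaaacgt
The other 3 are among the autosomal peaks of highest signal that hold a GA repeat. Here the capitals mark alternating runs that contain GAGAGAGA or its reverse complement.
chrII:11635806-11636006: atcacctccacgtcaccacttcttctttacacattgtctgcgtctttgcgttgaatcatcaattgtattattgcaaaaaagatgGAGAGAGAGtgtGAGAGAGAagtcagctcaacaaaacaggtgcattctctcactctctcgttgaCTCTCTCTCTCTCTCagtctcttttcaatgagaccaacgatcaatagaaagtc
chrII:12102498-12102698: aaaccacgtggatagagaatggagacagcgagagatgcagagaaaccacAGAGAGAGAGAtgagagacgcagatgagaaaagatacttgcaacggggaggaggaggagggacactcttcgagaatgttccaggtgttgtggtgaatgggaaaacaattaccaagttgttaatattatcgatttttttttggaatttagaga
chrIII:7116741-7116941: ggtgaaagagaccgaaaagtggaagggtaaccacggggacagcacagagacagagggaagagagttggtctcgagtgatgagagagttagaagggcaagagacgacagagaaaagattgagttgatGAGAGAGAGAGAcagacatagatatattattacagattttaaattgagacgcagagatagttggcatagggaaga

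The strongest far intergenic peaks lay on X. The 6 of highest signal were all on that chromosome, and X held 9 of the highest 15. Peak signal is the authors' enrichment value, on a scale that the labels do not state, so it is used for ranks and for values side by side. The highest peak, with its summit at chrX:9465851, had a signal of 246.687 in the pooled list, 125.894 in replicate 1 and 121.787 in replicate 2. It ranked 12 among all 15675 pooled peaks. It lies 1110 bp from ZK899.6 on one side and 6619 bp from gap-2, a Ras GTPase-activating protein gene, on the other. The window around its summit holds neither of the words marked in the sequences above.

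The second, at chrX:8036364, had a signal of 232.019 in the pooled list, with 131.033 in replicate 1 and 105.196 in replicate 2. Its neighbour on one side, 4949 bp away, is xol-1, the switch gene that sets sex and X dosage, and the ncRNA gene C18A11.13 lies 310 bp away. A further far intergenic peak of the final list has its summit 203 bp from it, with a pooled signal of 92.6, and both overlap the same replicate peaks. The third, at chrX:16682106, had 173.2 in the pooled list, 90.9 in replicate 1 and 82.7 in replicate 2. These peaks stood near the top in each replicate, at ranks 9 and 32 of replicate 1 and ranks 28 and 54 of replicate 2.

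The fourth, at chrX:11094168, had a pooled signal of 160.84 with 84.9 in replicate 1 and 89.1 in replicate 2, between the coding genes W04G3.11 and W02H3.3. The fifth, at chrX:13700818, had 158.879 with 72.2 in replicate 1 and 88.8 in replicate 2, and lies 5017 bp from adm-2, a gene of a membrane metalloprotease family. The sixth, at chrX:4209255, had 151.503 with 72.8 in replicate 1 and 78.6 in replicate 2, and lies 1316 bp from hpk-1, a homeodomain-interacting protein kinase gene. In all 6, each replicate alone placed the peak among its highest 77.

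The highest autosomal member, on chromosome I at a summit of 8786922, had a pooled signal of 144.701, with 81.8 in replicate 1 and 59.3 in replicate 2. It lies between mfb-1 and sup-17, an ADAM metalloprotease gene that acts in Notch signalling. The highest on chromosome IV, at 15570949, had 141.032, with 79.5 in replicate 1 and 61.9 in replicate 2, and the piRNA gene 21ur-8889 lies 286 bp away. Those on chromosomes III, II and V had 129.435 at 13061371, 123.063 at 11635906 and 75.1 at 14200226. Of the other members among the highest 15, chrX:11937524 had 144.492, with 80.7 in replicate 1 and 65.4 in replicate 2, and chrX:5801355 had 111.12, with 47.5 in replicate 1 and 55.6 in replicate 2. On chromosome I the summit at 13373102, 3737 bp from C01A2.9 and 6214 bp from sptf-3, had 110.754, with 58.8 in replicate 1 and 45.7 in replicate 2. On chromosome III the summit at 6344943 had 106.265, with 55.1 in replicate 1 and 51.0 in replicate 2. The 15 highest members, none of them on V, had signals of at least 106.265.

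**Figure D1:**
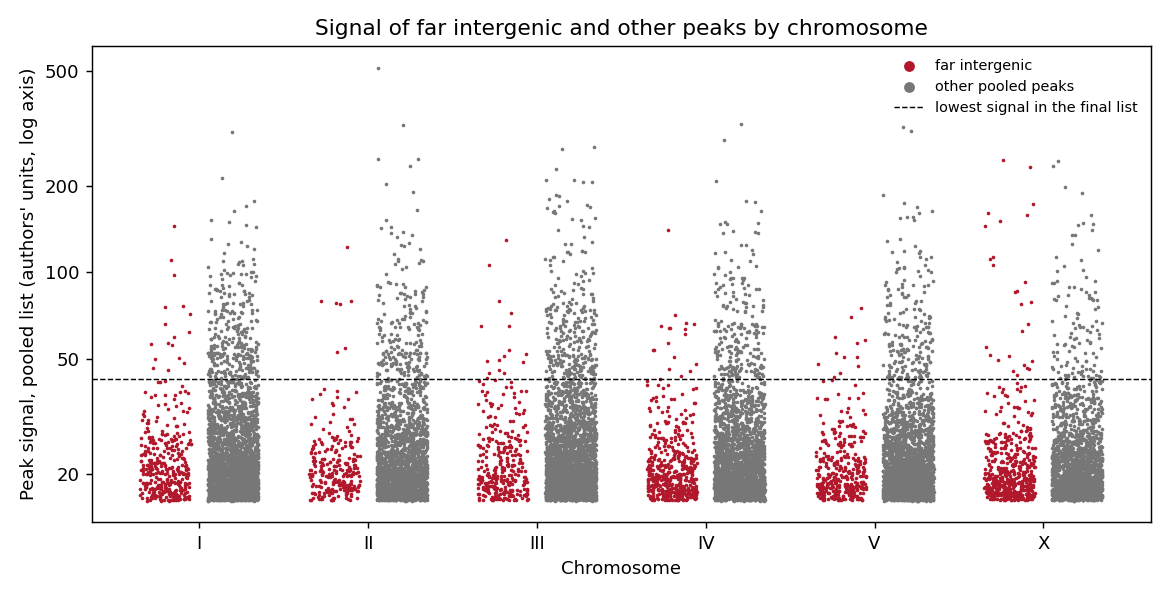
Signal in the pooled list (authors' units, log axis) of each far intergenic peak, in red, and of every other pooled peak, in grey, by chromosome. The dashed line is the lowest signal in the final list, 42.7, and the red points above 150 are all on X.

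Most far intergenic peaks were weak. The median signal of the 2281 was 19.8 (95% order-statistic interval 19.602 to 20.001), against 21.2 (21.1 to 21.4) in the other 13394 pooled peaks. The deposited −log10 q value had a median of 0.101 in the far intergenic peaks and 0.156 in the others. The pooled list includes background regions, so most of its entries are not called binding sites. The final list, the authors' set that passed their reproducibility threshold, holds 9.22% of all pooled peaks. It is made up of exactly the 1446 pooled peaks of highest signal, down to 42.7. A final share is therefore the share above that signal, and adds no separate evidence to the signal values. It held 97 of the 2281 far intergenic peaks, or 4.25% (exact binomial 95% interval 3.46 to 5.16), against 1349 of the 13394 others, or 10.1% (9.57 to 10.6). Peaks in coding promoter windows, from 1000 bp upstream to 200 bp downstream of a 5′ end, were in the final list in 17.5% of cases (16.4 to 18.6), and peaks elsewhere in coding gene bodies in 5.02% (4.54 to 5.53). The remaining 1066 peaks were in it in 13.8% (11.8 to 16.0).

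A peak was found in both replicates for 65.9% of the pooled list, counting any overlap of at least 1 bp. The share was 59.6% (57.5 to 61.6) for far intergenic peaks, 1359 in number, against 66.9% (66.1 to 67.7) for the others. All intervals cover counting error only. No test was made over peaks, which are not replicates, and an exact sign test on 2 replicates cannot give a p below 0.5. When each replicate list was cut to the length of the pooled list, 2209 far intergenic peaks were found in replicate 1 and 2376 in replicate 2 (mean 2292.5 ± 118 SD, n = 2).

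By distance from coding genes the final share showed no order. Summits up to 2000 bp from a coding 5′ end were in the final list in 3.80% of 711 cases, those farther off and up to 5000 bp in 4.77% of 1111, and those beyond 5000 bp in 3.70% of 459. The intervals of these shares overlap. The median signal fell along the same bands, from 20.43 (19.91 to 20.85) to 19.66 (19.36 to 19.95) and 19.50 (19.12 to 19.89). For signal, the intervals of the nearest and farthest bands do not overlap. The 207 members within 250 bp inside the 1000 bp limit had a median signal of 21.0, and the 281 summits within 250 bp outside it had 20.5. Their final shares were 2.42% (0.789 to 5.55) inside and 5.34% (3.02 to 8.65) outside. The 51 members within 125 bp inside the 3′ limit had a median of 19.4, and the 57 summits within 125 bp outside it had 20.6. Their final shares were 7.84% (2.18 to 18.9) inside and 10.5% (3.96 to 21.5) outside.

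By the direction of the flanking coding genes, 900 members lay between divergent genes, 1251 between genes on the same strand and 130 between convergent genes. Convergent gaps held 5.70% of members (4.78 to 6.73) beside 10.2% of the positions that meet the rule, divergent gaps 39.5% (37.4 to 41.5) beside 36.8%, and tandem gaps 54.8% (52.8 to 56.9) beside 52.8%. The final share was 2.78% (1.81 to 4.07) between divergent genes, 5.12% (3.96 to 6.49) between tandem genes and 6.15% (2.69 to 11.8) between convergent genes.

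X held the most members of any chromosome, but fewer per Mb of positions that meet the rule than I, III or IV. Its 527 members were 23.1% of all (21.4 to 24.9), beside 24.9% of the 18297591 genome positions that meet the same distance rule. Per Mb of such positions there were 116 members on X and 128 on the autosomes. The densities were 171 on I, 147 on III, 128 on IV, 108 on V and 99.2 on II. Both replicates gave a like share for X, 24.7% in replicate 1 and 23.9% in replicate 2.

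On X the final share was 5.12% (3.40 to 7.37) for far intergenic peaks, against 6.55% (5.45 to 7.79) for the other pooled peaks of X. On the autosomes it was 3.99% (3.12 to 5.02) for far intergenic peaks, against 10.6% (10.1 to 11.2) for the others. The intervals overlap on X and are apart on the autosomes. Far intergenic peaks made up 5 of the 10 strongest pooled peaks of X (50%, 18.7 to 81.3) and 13 of its strongest 50 (26%, 14.6 to 40.3). Both intervals take in the 22.6% that they make up of all X peaks. On chromosome I they made up 1 of the strongest 10, beside 12.3% of all peaks there. On II, III, IV and V they made up none, beside 11.0%, 11.2%, 17.4% and 13.6% of all peaks, where the interval on 0 of 10 runs to 30.8%.

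Replicate signals of the 97 final members are plotted against each other. On X, 20 of 27 stood among the highest 1446 peaks of both replicates, and on the autosomes 42 of 70, against 815 of the 1349 other final peaks. Spearman's rho between the replicates was 0.86 over the 27 on X and 0.31 over the 70 on the autosomes, against 0.44 over the other final peaks, given as a description, since 2 of the X peaks share their replicate peak and the range of signal is wider on X.

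**Figure D2:**
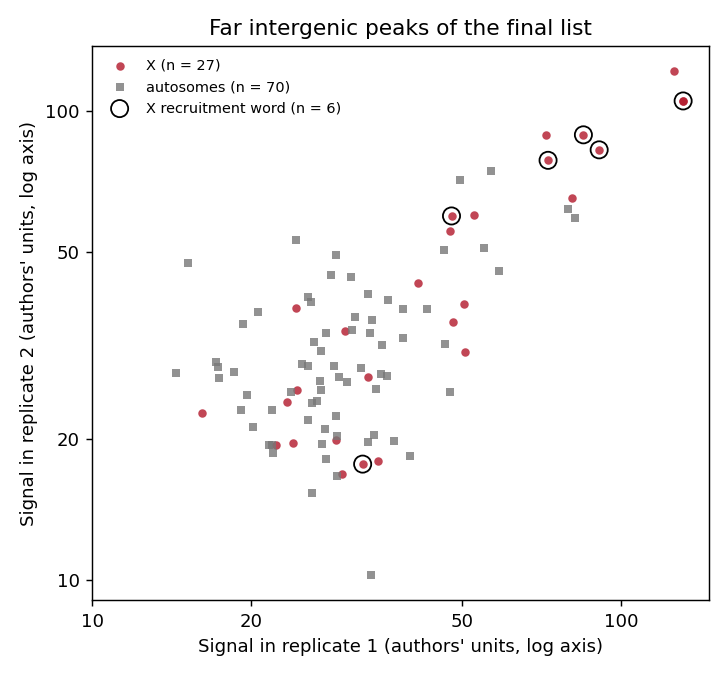
Signal in replicate 1 (x axis) and replicate 2 (y axis) of the 97 far intergenic peaks of the final list, both in the authors' units on log axes, with X as red circles and autosomes as grey squares. Rings mark the 6 peaks with the word TCGCGCAGG, of which 5 have a pooled signal above 100.

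On chromosome arms, taken as the positions outside the middle 50% of each chromosome, lay 44.5% of members (42.4 to 46.5), beside 51.7% of the positions that meet the rule and 39.5% of the other peaks (38.7 to 40.4). On the autosomes there were 105 members per Mb on arms and 151 in centres. On X the densities were 114.6 on arms and 117.4 in centres. The final share was 5.13% (3.85 to 6.67) on arms and 3.55% (2.60 to 4.72) in centres, with overlapping intervals.

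A non-coding gene lay within 500 bp of 604 members, or 26.5% (24.7 to 28.3), beside 23.0% of the positions that meet the rule. Where every base of the peak had to pass the rule, the share was 13.2%, a setting that itself removes peaks reaching into a non-coding gene. The final share of the 604, 4.47% (2.97 to 6.44), was close to the 4.17% (3.27 to 5.24) of the 1677 members with none. The distance to the nearest non-coding gene had a median of 1886 bp over all members and 2104 bp over the 97 in the final list.

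Transfer RNA genes, the adaptors of translation, had 18 members nearby, 0.789% of all (0.468 to 1.24), beside 0.275% of the positions. The highest, at chrX:13046516, had a pooled signal of 113.589, with 52.6 in replicate 1 and 59.9 in replicate 2, and lies 62 bp from the tRNA gene WBGene00014295. Genes of snoRNAs, which guide the chemical modification of other RNAs, had 21 members nearby, 0.921% (0.571 to 1.40), beside 0.249% of positions. The highest of them, on chromosome III at 8937716, had 49.4 in the pooled list, 27.1 in replicate 1 and 25.4 in replicate 2, and lies 51 bp from ZK643.9. For both kinds the lower bound of the members' share is above the share of positions.

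Genes annotated only as ncRNA had 280 members nearby, 12.3% (11.0 to 13.7) beside 8.68% of positions, with 18 in the final list. The piRNA genes, which encode small guides of germline silencing, had 220 members nearby, 9.64% (8.46 to 10.9) beside 8.66% of positions, with 2 in the final list. Around their summits these 220 had a median GC of 28.9%. Of all 540 members with a GC from 25% to below 30%, 3 were in the final list, or 0.556%. The part of GC in this low share was not tested. Pseudogenes had 41, 1.80% (1.29 to 2.43), below their 4.20% of positions, the highest on chromosome II at 8787556 with a signal of 77.9 and 214 bp from WBGene00014309. Long intergenic RNA genes had 15, 0.658% (0.369 to 1.08) beside 0.464% of positions, the highest on chromosome IV at 11809891 with 66.5 and 218 bp from linc-151. For miRNA genes there were 8, 0.351% beside 0.338% of positions, the highest with 39.8 and 93 bp from cel-mir-52. None of the 8 was in the final list, where the interval runs to 36.9%. A single member lay near an snRNA gene, with a signal of 23.3 and 63 bp from sls-2.12, and it had no peak in replicate 1. Each member was counted under its single nearest non-coding gene. For none was this an rRNA or antisense RNA gene within 500 bp, kinds with only 0.0548% and 0.0257% of positions.

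**Figure D3:**
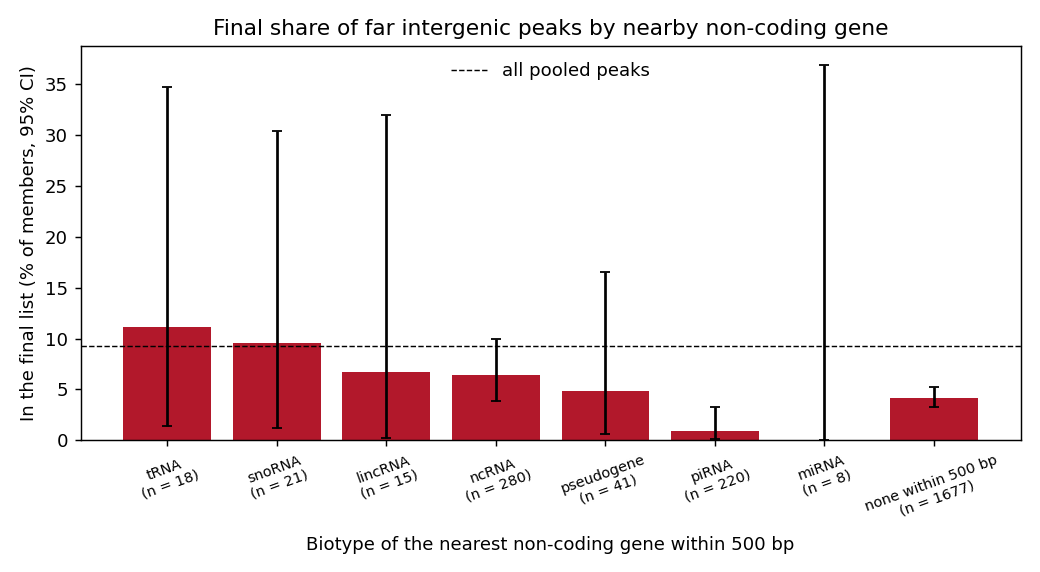
Share of far intergenic peaks that are in the final list, in percent, by the biotype of the nearest non-coding gene within 500 bp, with exact 95% intervals and the number of peaks under each bar. The dashed line is the 9.22% of all pooled peaks. The bars for piRNA genes, at 0.909%, and for no gene within 500 bp, at 4.17%, have their whole intervals under that line.

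The nearest coding genes were grouped by name class. Nuclear hormone receptor genes, ligand-regulated transcription factors, were nearest to 78 members, 3.42% (2.71 to 4.25) beside 1.96% of positions, and 1 of the 78, near nhr-10, was in the final list. Chemoreceptor genes were nearest to 42 members, 1.84% (1.33 to 2.48) beside 3.62% of positions, with none in the final list, where the interval on 0 of 42 runs to 8.41% and takes in the 4.25% of all members. Ribosomal protein genes were nearest to 6, of which the one near rps-25 was in the final list. Collagen, homeobox, C-type lectin, F-box and neuropeptide or insulin genes were nearest to 8, 10, 5, 3 and 20 members, with none in the final list. The intervals on those shares run to at least 16.8%, so none can be told from the 4.25% of all members.

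GC was higher in the far intergenic peaks of the final list than in the other final peaks on the autosomes, and not on X. The windows of 100 bp on either side of their summits had a median GC of 42.8% (41.8 to 44.8), against 38.8% (38.3 to 39.3) in the other final peaks. On the autosomes the medians were 43.0% (41.8 to 44.8) in final members and 38.8% (38.3 to 39.3) in the other final peaks. On X they were 41.3% (36.8 to 45.8) in final members and 43.3% (38.8 to 44.8) in the other final peaks, with overlapping intervals. Over all 2281 members the median was 33.3%, the same as in the 90994 windows of that length whose centre meets the rule. Below 25% GC 1 of 170 members was in the final list, and at 45% or more 37 of 212, or 17.5% (12.6 to 23.2). GC can change how well a fragment is amplified and sequenced, and its part in the signal was not tested.

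Of 12 words searched on both strands of these windows, the GA repeat GAGAGAGA was the most frequent in final members. It was present in 24 of the 97 final members, or 24.7% (16.5 to 34.5), against 6.82% (5.53 to 8.30) of the other final peaks and 1.75% of all windows that meet the rule. By chromosome, a split made after the values were seen, 22 of the 70 autosomal final members held it (31.4%, 20.9 to 43.6) and 2 of the 27 on X (7.41%, 0.910 to 24.3). Within 50 bp of the summit, a shorter window, the autosomal count was 11. By rank of signal among members, 1 of the 15 highest held it (6.67%) and 23 of the 82 at ranks 16 to 97 (28.0%). Of the members outside the final list, 11.4% of the 403 next in signal held it, 28 of the 500 after them and 3.20% of the remaining 1281. In the 24 windows the longest run of alternating G and A had a median of 12 bases and a maximum of 37.

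The other words of the 12 were each in at most 14 of the 97. The E-box CACGTG was in 5 of the 97 final members, against 62 of the 1349 other final peaks and 2.67% of all windows. The B box core of tRNA genes, GTTCGANNC, was in 1 of 97, against 4.45% of the other final peaks. The piRNA upstream motif CTGTTTCA was in none of the 97, where the interval runs to 3.73%, and on chromosome IV it was in 10.6% of all members beside 9.85% of windows. Some words were less frequent in final members than in all windows. TATAAA was in 14 of 97, or 14.4% (8.12 to 23.0), against 18.6% of the other final peaks and 23.8% of all windows. Its low share was on the autosomes only, in 7 of 70 final members (interval 4.12 to 19.52%), beside 23.2% of autosomal windows. On X it was in 7 of 27 (25.9%, 11.1 to 46.3), beside 25.5% of X windows. The T run TTTTTTTT was also in 14 of 97, against 16.5% of the other final peaks and 26.4% of all windows. The heat shock element GAANNTTC was in 6, or 6.19% (2.30 to 12.98), against 11.6% of the other final peaks and 13.8% of all windows. For these 3 words, with all chromosomes pooled, the share of all windows lies above the interval of the final members. TATAAA and TTTTTTTT hold only A and T, while GAANNTTC also holds G and C. Final members had a median GC of 42.8%, against 33.3% in all windows. The part of GC in these counts was not tested. The E2F site TTCCCGC was in 1 (1.03%, 0.0261 to 5.61), against 3.48% of the other final peaks and 2.61% of all windows. The GATA site GATAAG was in 4 (4.12%, 1.13 to 10.2), against 6.38% and 7.05% of the same sets. The forkhead site GTAAACA was in 2 (2.06%, 0.251 to 7.25), against 1.93% and 2.78%. The GC box GGGCGG was in 3 (3.09%, 0.642 to 8.77), against 5.26% and 3.25%. The telomere repeat TTAGGCTTA was in none, against 0.148% and 0.657%.

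The word TCGCGCAGG was not among those 12. After the 12 had been counted, 8 further words of 6 to 9 letters, overlapping pieces of the recruitment motif, were tried, and TCGCGCAGG was chosen for display after all their counts were seen. Its counts are therefore a description of these windows and carry no test. It was present in 6 of the 27 final members on X (22.2%, 8.62 to 42.3), in none of the 70 on autosomes and in none of the 2184 members outside the final list. Of the other final peaks it was in 6 of 118 on X and in none of 1231 on autosomes. It was in 18 of the 22619 windows on X that meet the rule, or 0.0796%, and in 11 of 68375 on autosomes.

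The other 7 words tried gave the following counts. CGCGCAGG and TCGCGCAG were each in 6 of the 27 final members on X and none of the 70 on autosomes. CGCGCAGGG and GCGCAGGG were each in 5 of 27 and none of 70, and CGCAGGGAG in 1 of 27 and none of 70. The shortest were also present on autosomes. GCAGGG was in 9 of 27 (33.3%, 16.5 to 54.0) and 2 of 70 (2.86%, 0.348 to 9.94), with intervals apart. GCGCAG was in 6 of 27 (22.2%, 8.62 to 42.3) and 9 of 70 (12.9%, 6.05 to 23.0), with overlapping intervals. Since the words overlap, the same windows are counted many times among them.

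Across the genome TCGCGCAGG occurs 48 times on X, or 2.71 per Mb, and 68 times on autosomes, or 0.824 per Mb. On X, 15 of the 48 lay within 100 bp of a final summit, 9 of them at far intergenic peaks, and on autosomes none of the 68 did. The 6 far intergenic peaks that hold it had pooled signals between 55.0 and 232.019 with a median of 156, against a median of 66.2 in the 21 final X members without it, which reached 246.687. The ranges overlap. The fifth of them by signal, at chrX:13514600, lies 1256 bp from cdk-4, a cell cycle kinase gene, and had 106.092 in the pooled list, 47.8 in replicate 1 and 59.8 in replicate 2. The weakest, at chrX:17544529, had 55.0 in the pooled list, 32.5 in replicate 1 and 17.7 in replicate 2. A match is a stretch of letters, and whether the complex is bound there was not measured.

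**Figure D4:**
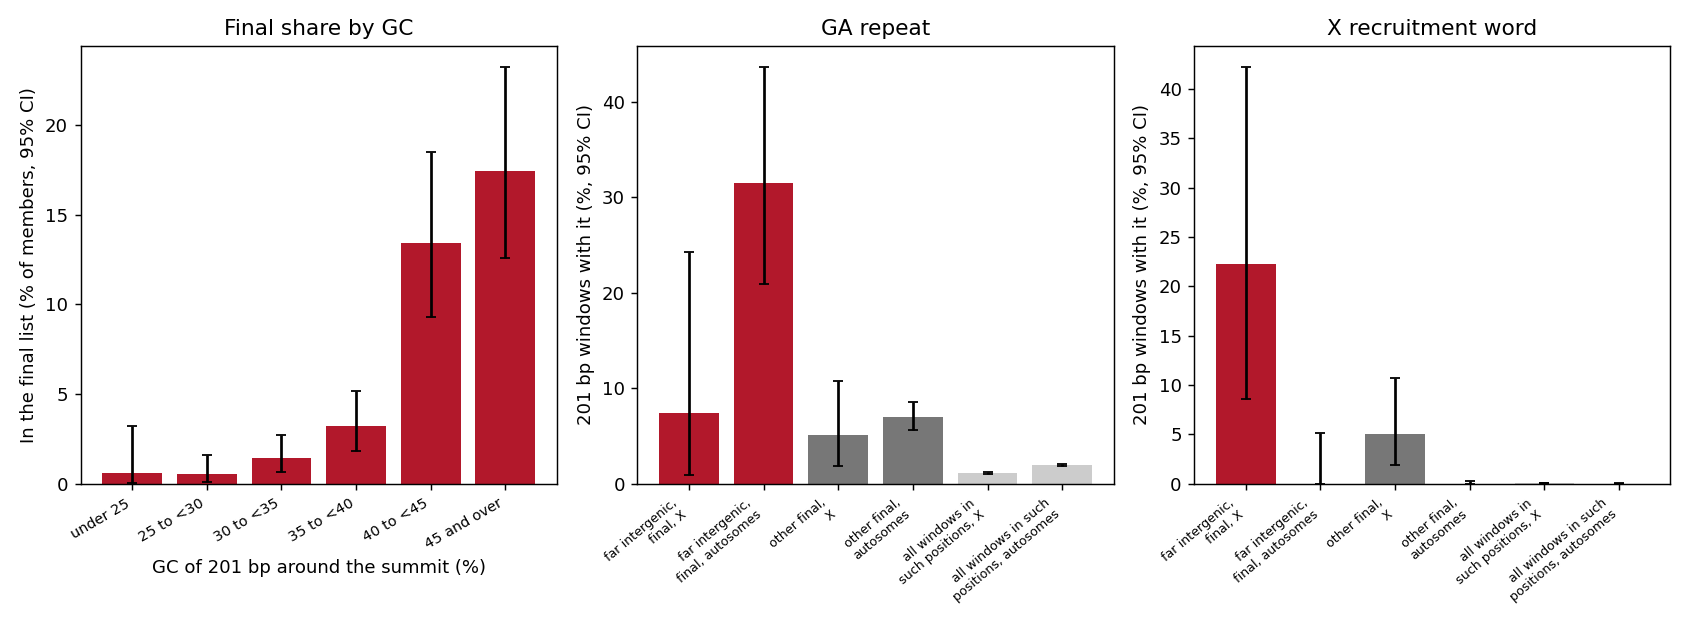
The left panel gives the share of far intergenic peaks in the final list by GC of the window around the summit, and the others give the share of windows that hold the GA repeat GAGAGAGA and the word TCGCGCAGG, labelled X recruitment word, which was chosen after 8 words had been counted, all in percent with exact 95% intervals. The GA repeat is highest in autosomal final members, at 31.4%, and the other word in final members on X, at 22.2%.

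Copies elsewhere in the genome were rare. Of the members, 14 (0.614%, 0.336 to 1.03) had another stretch with at least 90% identity over at least 80% of the window, against 136 of the other pooled peaks (1.02%, 0.853 to 1.20). Of the 2281 members, 250 had another pooled summit within 500 bp, so nearby members are not independent. The 97 final members fall into 96 loci at that distance.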

How the data were processed

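The 2 replicates are separate biological replicates per the labels. For each, and for both pooled, the authors deposited a list of peaks and background regions made as input for IDR, a test of reproducibility between replicates, and a final list of 1446 peaks, in ce11 coordinates. The deposited signal value of each peak comes with no stated scale, and the deposited −log10 q value was used only as a description. The sources used here name no aligner or peak caller. Read depth is unknown and the control library was not analysed here. The labels give a fragment size range of 150 to 350 bp.

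Summits were compared with 46890 genes, 19973 of them coding, of Ensembl WBcel235 release 115, on 6 chromosomes. The same distance rule was applied to every genome position (18.2% passed), and windows of the same length as those around the summits (100 bp on either side) were laid side by side over those positions. Overlap with a replicate peak meant at least 1 bp. Shares have exact Clopper-Pearson 95% intervals. Copies were found with blastn 2.17.0. Python 3.11.15, numpy 2.4.6, pandas 2.3.3 and scipy 1.17.1 were used, and the distance rule was checked on a toy annotation. Regions named are the 15 members of highest signal, the highest on each chromosome and the highest near each non-coding biotype. Members with the word TCGCGCAGG or a GA repeat were named after their values were seen. The members, lists and words were chosen with earlier results of these data known, and 8 words were tried after the 12 planned ones. Alternatives were other distances, whole peaks, the stronger peaks only, the RefSeq annotation, piRNA genes left out, other windows and each replicate alone.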

Additional observations from a re-analysis of the deposited data

How the results depend on the processing

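Of the 75 recomputed values, 61 stayed within their interval or within 1.5 times the main count and 14 moved beyond it. The values are counts, shares and medians, which have no direction, so none could be reversed. With distances over 2000 bp and 1000 bp there were 1452 members, the median signal was 19.6 and 29.8% were near a non-coding gene. In the upper 50% of the pooled list by signal there were 927 members, of which 10.5% were in the final list, 84.7% in both replicates and 20.5% on X, with a median GC of 36.3%. The whole final list lies in that upper part. With at least 50% of both peaks overlapping, 50.9% were in both replicates. With arms outside the middle 60%, 36.3% lay on arms. The share near a non-coding gene was 18.9% within 250 bp, 37.1% within 1000 bp and 13.2% where every base of the peak passed the rule. Within 50 bp of the summit, a window chosen after seeing the data, 11 autosomal final members held a GA repeat, and within 180 bp 26 did, against 22 in the main window. The word TCGCGCAGG was in 6 final members on X within 50 bp and 7 within 180 bp.

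The number on X among the 15 highest was between 8 and 10 in the alternatives, which were added after seeing the data, and 10 from each replicate alone. Using 1 replicate at a time gave between 2209 and 2376 members. There the 1446 peaks of highest signal in the replicate stood in for the final list. Between 4.34% and 4.98% of members were among them. The arm share was between 44.3% and 44.6% and the X share between 23.9% and 24.7%. The share near non-coding genes was between 25.7% and 26.0%, and the median GC between 32.8% and 33.8%. No paired analysis was possible because there is only 1 group. Read depth is unknown, the signal scale is not given, and 2 replicates limit what can be told about spread.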
